A study of Homo sapiens with 5 samples.

Results

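Tightly clustered shared ERG regions are sites where ERG peaks were called in both ERG replicates of VCaP cells and where another such site lay within 10 kb. They were chosen by merging overlapping peaks of the ERG lists, keeping merged regions that held a peak of each replicate (shared regions), and keeping those whose edge lay at most 10 kb from the edge of another shared region, on the 20 autosomes other than 17 and 19. The rule selected 1247 of the 8094 shared regions on these chromosomes, which is 15.4% (95% Wilson interval 14.6% to 16.2%). They formed 578 clusters. The remaining 6847 shared regions of the same chromosomes are called the other shared regions. Over all chromosomes the lists held 16095 merged ERG regions, 9366 of them shared.

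The samples were chromatin immunoprecipitations followed by sequencing (ChIP-seq) from untreated VCaP cells, an established prostate cancer line with the TMPRSS2-ERG fusion and mutant p53. ERG was precipitated in 2 samples and p53 in 2 samples, and an input sample had no list used here. The 4 lists came from 1 cell line without treatment, perturbation or a line lacking ERG or p53, and the labels do not say whether replicates were separate cultures. The lists give positions only, with no read count, enrichment or summit, so the depth behind each peak is unknown.

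ERG is a transcription factor of the ETS family. ETS proteins bind DNA through a winged helix-turn-helix domain that reads a GGAA core, and the fusion places ERG under the androgen-responsive control of TMPRSS2 in prostate cells. Neighbouring binding sites of a factor occur, for example, where a promoter and enhancers of 1 gene or several gene starts lie close together. Mutant p53 proteins with a changed DNA-binding domain lose much of their binding to the usual p53 sites and can still be found on chromatin at other places.

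Sequences at hand in the build of the lists were 25-base candidate motifs for mutant p53 that the study lists with hg19 positions and gene labels. Those shown lie inside a clustered ERG region that also overlapped a deposited p53 peak, because these are the places where both factors were called within a cluster. Capitals mark runs of at least 3 C, and each sequence is written 5′ to 3′ on its own strand.
BGLAP and PMF1, chr1:156186430-156186454, minus strand: gccgccttCCCCgccgCCCCCgggt
GNB2, chr7:100271078-100271102, minus strand: tcagcctCCCgCCCCgcctggaatg
GPR137 and PLCB3, chr11:64037157-64037181, plus strand: gagccgccgcgaCCCCttccgtctc
ING1, chr13:111366208-111366232, plus strand: ggCCCCCggcgccagCCCCgccgcc
The first lay inside its p53 peak, a distance of 0 bp, and the next 3 lay 115 bp, 144 bp and 1314 bp from the nearest p53 peak at their region. C made up 15, 12, 13 and 16 of the 25 bases.

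The region at BGLAP (osteocalcin, a bone matrix protein) and PMF1 (a kinetochore protein) was 319 bp wide, overlapped p53 peaks of both replicates and had its neighbour 8695 bp away. Its 25 bases occurred at 5 places in GRCh38, so no annotation was assigned to them. The region at GNB2, the beta subunit of a heterotrimeric G protein, was 918 bp wide in ERG replicate 1 and 221 bp in ERG replicate 2, and its candidate matched 1 place in GRCh38, 273 bases before the start of the gene and outside annotated protein-coding genes. The region at GPR137 and PLCB3 (phospholipase C beta, which acts downstream of G proteins) was 1906 bp wide, the widest of all clustered regions, with a neighbour of 704 bp only 397 bp away. It overlapped a p53 peak of replicate 1. The candidate there matched 1 place in GRCh38, outside annotated protein-coding genes. By canonical transcripts the nearest gene start was that of BAD, which is not in its label, 14968 bases away. The region at ING1, a chromatin reader that binds p53 and restrains growth, was 1820 bp wide and overlapped a p53 peak of replicate 2. In GRCh38 its candidate lay 173 bases past the start, in an untranslated part of an exon by GENCODE 44.

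ING1 belonged to a cluster of 3 whose lowest member carried the candidate labelled CARS2, the mitochondrial cysteinyl-tRNA synthetase. That member was 530 bp wide, and the gaps along the cluster were 5664 bp and 1154 bp. Further candidates lay in clustered regions without a p53 peak, among them those labelled KAT5, an acetyltransferase that modifies histones and p53 (region of 963 bp, neighbour 7912 bp away), PPP1CA, a catalytic subunit of protein phosphatase 1 (846 bp, 9319 bp), FIBP, an FGF-binding protein (950 bp, 1275 bp), SLC29A2, a nucleoside transporter (605 bp, 396 bp), STX16, a syntaxin of vesicle fusion (361 bp, 836 bp), and RAB20, a small GTPase (828 bp, 286 bp). These genes were picked after their values were seen, and the table they come from was held only in part, so no share of it is given. The region at CTNNB1, where the study placed its reference motif, was shared and was not clustered, with its nearest shared region 320765 bp away.

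Promoter stretches of 3 of these genes show how the C-rich candidate and an ETS-type motif lie together. They are RefSeq sequences of GRCh38.p14 and were read by gene symbol. Each ends before every exon that GENCODE 44 annotates within the promoter sequence read. By that annotation the CARS2 candidate lies in an intron of CARS2, and exons farther upstream were not searched. Capitals mark CCGGAA or its reverse complement TTCCGG, searched on both strands.
FIBP, chr11:65888532-65888721, minus strand: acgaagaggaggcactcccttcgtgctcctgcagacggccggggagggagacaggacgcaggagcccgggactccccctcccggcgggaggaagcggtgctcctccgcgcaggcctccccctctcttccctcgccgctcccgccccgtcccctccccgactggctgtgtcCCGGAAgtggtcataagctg
CARS2, chr13:110706134-110706366, minus strand: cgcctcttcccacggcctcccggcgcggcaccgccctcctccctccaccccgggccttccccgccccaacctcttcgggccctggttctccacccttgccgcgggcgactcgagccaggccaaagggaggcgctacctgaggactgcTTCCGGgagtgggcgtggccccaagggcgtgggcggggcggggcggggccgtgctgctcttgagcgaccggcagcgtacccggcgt
STX16, chr20:58651033-58651271, plus strand: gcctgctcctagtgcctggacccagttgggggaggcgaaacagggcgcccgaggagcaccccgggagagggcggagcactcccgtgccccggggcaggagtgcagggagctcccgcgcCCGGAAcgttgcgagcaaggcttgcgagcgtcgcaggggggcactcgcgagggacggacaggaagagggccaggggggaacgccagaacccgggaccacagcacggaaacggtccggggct
In the FIBP stretch of 190 bases the candidate took bases 132 to 156 and the motif began at base 171. In CARS2 (233 bases) the candidate took bases 17 to 41 and the motif began at base 148. In STX16 (239 bases) the motif began at base 119 and the candidate, on the other strand, took bases 175 to 199. Of 35116 RefSeq promoters, 9.26%, 12.8% and 13.4% held the motif in stretches of these lengths. The 3 were chosen because they hold a match, which is a description of letters and not of a bound site.

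Most clusters were pairs. There were 502 pairs, which held 1004 regions (80.5% of the members), 65 clusters of 3, 9 of 4, 1 of 5 and 1 of 7. The median span of a pair from its lower to its upper edge was 4550 bp, against 9178 bp for clusters of 3, and spans of all clusters ran from 796 bp to 29357 bp.

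The cluster with the most regions lay at chr11:63993165-64020218. Its 7 regions spread over 27054 bp and covered 16.6% of that span. Along the chromosome the regions measured 967, 769, 344, 1420, 331, 366 and 302 bp, with gaps of 3528, 6553, 2649, 3438, 1580 and 4807 bp. Each replicate had 1 peak per region, where the rule requires at least 1 of each. In the fourth region, the widest, the peak was 1386 bp in replicate 1 and 1367 bp in replicate 2, and in the last region it was 289 bp and 273 bp. The only cluster of 5 lay at chr15:93181533-93199159, where a tight pair with a gap of 496 bp stood at one end, another with a gap of 600 bp at the other end and a single region of 620 bp between them. Its replicates differed more in width. The last peak measured 727 bp in replicate 1 and 288 bp in replicate 2.

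Spans of the 9 clusters of 4 ran from 7023 bp to 29357 bp. The shortest lay at chr7:38345818-38352840 (7023 bp), chr12:6642534-6650022 (7489 bp), chr12:89740188-89748157 (7970 bp) and chr16:730275-740613 (10339 bp). At chr12:6642534 3 regions of 677, 424 and 287 bp were separated by 317 bp and 369 bp, and the fourth followed after 5138 bp. At chr12:89740188 all regions were at least 475 bp wide and covered 28.8% of the span. The longer ones, at chr2:65633756-65648284, chr9:136223158-136243275, chr11:554928-576877 and chr9:35748904-35771467, had their regions spaced more evenly, with no gap under 2832 bp. Within the spans of these 10 clusters 1 further region was found, at chr11:554928, where a peak of replicate 1 had no partner in replicate 2. The ninth cluster of 4, at chr1:149803830-149833186, had the longest span of all clusters (29357 bp), gaps of 9898, 7086 and 9672 bp, and 1 unpartnered region of replicate 1 and 2 of replicate 2 inside it. It falls outside the 10 clusters named by rule and was added after its values were seen. None of the 48 regions in clusters of 4 or more overlapped a p53 peak, where 1.36% of all shared regions did. Taking 3 counts as the limit that a count of 0 allows, their share could be up to 6.25%, so a share below that of all shared regions was not detectable.

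**Figure D1:**
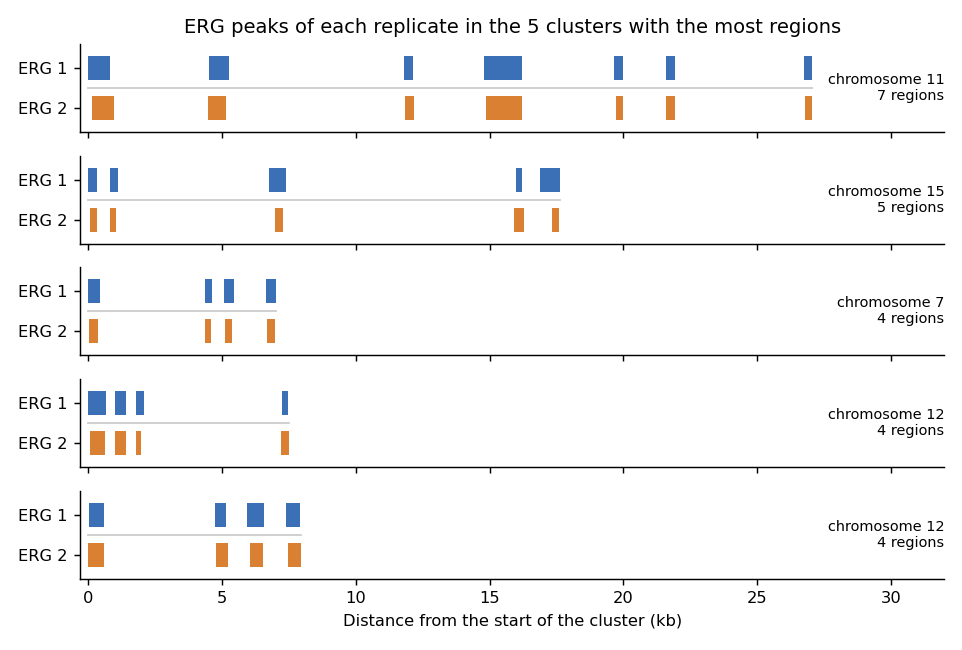
ERG peaks of replicate 1 (blue) and replicate 2 (orange) in the 5 clusters with the most shared regions, drawn to scale against distance from the start of the cluster in kb. Each region holds a peak of both replicates, the chromosome 11 cluster spans 27054 bp with 7 regions, and the chromosome 7 cluster spans 7023 bp with 4.

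Clusters were spread unevenly over the chromosomes. On chromosome 11, 145 of 597 shared regions were clustered (24.3%, 95% interval 21.0% to 27.9%), followed by chromosome 16 with 20.7% and chromosome 12 with 19.6%. The lowest share was on chromosome 18, with 8 of 149 (5.37%, 2.75% to 10.2%), and chromosomes 5 and 2 had 9.63% and 9.94%. The interval of chromosome 11 overlapped those of chromosomes 16 and 12 and lay above that of chromosome 18. Among 276 windows of 10 Mb with a shared region, 195 held a clustered one. The window from 60 to 70 Mb of chromosome 11 held 69 clustered regions of 171 shared (40.4%) in 28 clusters, and the next, 150 to 160 Mb of chromosome 1, held 26 of 82.

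The clustered share was higher where ERG regions were dense. Both are counted from the positions the rule used, and a neighbour within 10 kb is more likely wherever more regions lie nearby, so these values are a description. Leaving out a region's own cluster, a median of 6 shared regions lay within 500 kb of a clustered region and 5 of another shared region. The clustered share was 7.06% (5.67% to 8.74%) among 1077 shared regions with at most 1 other within 500 kb and 12.3% among those with 2 to 4. It was 17.2% among those with 5 to 9 and 23.7% (21.6% to 25.9%) among 1471 with 10 or more. Even in the sparse class 20 regions had a neighbour under 1 kb away. That was 1.86% of the class, against 4.89% in the densest.

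The fullest 1 kb class of gaps between neighbours of a cluster was that under 1 kb, though most gaps were longer. Of 669 gaps between neighbours the median was 3659 bp (quartiles 1019 and 6840 bp), and the range of 42 to 9936 bp is set by the rule. There were 166 gaps under 1 kb (24.8%) and 83 from 1 to 2 kb, and each further class of 1 kb held 48 to 58. Among the shortest, gaps of 200 to 500 bp numbered 85 and 10 were shorter than 200 bp. For the other shared regions the nearest shared region was a median of 75632 bp away.

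Counting every pair of shared regions and not neighbours alone gave the same shape. There were 732 pairs up to 10 kb apart, and the 9 classes of 10 kb up to 100 kb held 536 to 633 pairs each. Below 1 kb there were 167 pairs, while the classes of 1 kb from 10 to 100 kb held a median of 57.5 and at most 83. The separate lists showed it too. Replicate 1 had 407 pairs of peaks under 1 kb against a median of 120 per class, and replicate 2 had 323 against 79. The surplus of close pairs thus lay below 2 kb, and from 2 to 10 kb pairs were about as frequent per kb as at 10 to 100 kb.

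**Figure D2:**
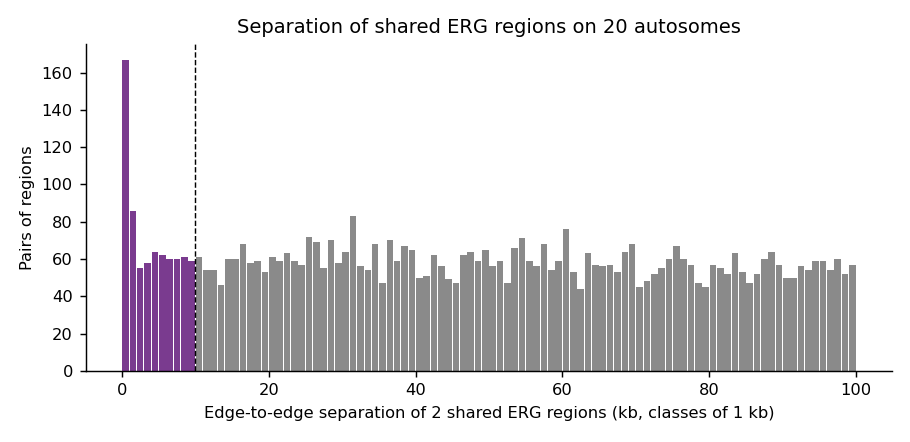
Number of pairs of shared ERG regions in each 1 kb class of edge-to-edge separation up to 100 kb, on the 20 autosomes. The classes that make clusters are purple, the dashed line marks 10 kb, and the class under 1 kb holds 167 pairs, that from 1 to 2 kb holds 86, and those from 10 to 100 kb hold 44 to 83.

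Spacing was measured in each replicate, where the rule leaves little room for a difference because the replicate peaks of a member must overlap. Measured between peak midpoints, neighbours of a cluster lay a median of 4169 bp apart in replicate 1 and 4137 bp in replicate 2. The spacing of a given pair differed between the replicates by a median of 56.5 bp, by at most 100 bp for 486 of the 669 pairs (72.6%) and by 547 bp at most.

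The 5 closest pairs illustrate where a cluster depends on how peaks were cut. At chr20:30945837-30946996 the regions were 42 bp apart. The lower was 495 bp in replicate 1 and 242 bp in replicate 2, and the upper 270 bp and 513 bp, so each replicate had its wide peak on another side. At chr20:58514675-58515964 the gap was 104 bp and the upper peak was 747 bp in replicate 1 and 220 bp in replicate 2. At chr8:134309288-134310875 the gap was 149 bp, at chr3:133968996-133970077 it was 155 bp and at chr11:57434841-57435974 it was 166 bp. The pair on chromosome 3 alone of these 5 overlapped p53, in replicate 1.

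The regions nearest to the distance limit show how little separates members from the rest there. The 3 widest gaps inside it were 9913 bp at chr22:35863748-35874300, 9934 bp at chr9:139294385-139305306 and 9936 bp at chr9:37592228-37603170. The 3 narrowest gaps outside it were 10058 bp at chr12:7036834-7047443, 10074 bp at chr2:170430236-170441084 and 10132 bp at chr9:110184525-110195266. The regions inside were 257 to 634 bp wide and those outside 235 to 442 bp.

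Clustered regions differed little in width from the others. Their median width was 449 bp (quartiles 353 and 601 bp) against 433 bp (342 and 567 bp). In replicate 1 the peaks measured a median of 413 bp in clustered and 400 bp in other shared regions, and in replicate 2 they measured 338 bp and 324 bp. The difference between the replicates was larger than that between the groups. The median was larger in clustered regions on 11 chromosomes, smaller on 8 and equal on 1. Of the clustered regions 44 (3.53%) were wider than 1000 bp, and of the others 189 (2.76%).

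Width changed little with cluster size or spacing. The median was 448 bp in pairs, 452 bp in clusters of 3 and 436.5 bp in larger ones. It was 448 bp for regions with a neighbour under 1 kb away, 447.5 bp from 1 to 5 kb and 450 bp from 5 to 10 kb. Neighbours were often unequal, the wider being a median of 1.44 times the narrower and at least 2 times in 117 of 669 pairs. With shared regions split by width into 5 classes of about equal number, 14.3% (12.7% to 16.1%) were clustered in the narrowest class and 17.6% (15.8% to 19.5%) in the widest, and these intervals overlap.

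The 5 clustered regions with the largest width in their narrower replicate peak lay at chr15:75745847-75747444, chr11:64007975-64009394, chr8:144815108-144816449, chr4:141071439-141073107 and chr13:111364437-111366256. Their peaks measured 1494, 1386, 1342, 1611 and 1820 bp in replicate 1 and 1588, 1367, 1337, 1231 and 1210 bp in replicate 2. The second is the widest region of the cluster of 7 and the fifth is the ING1 region. That region was the only one of the 5 to overlap a p53 peak.

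**Figure D3:**
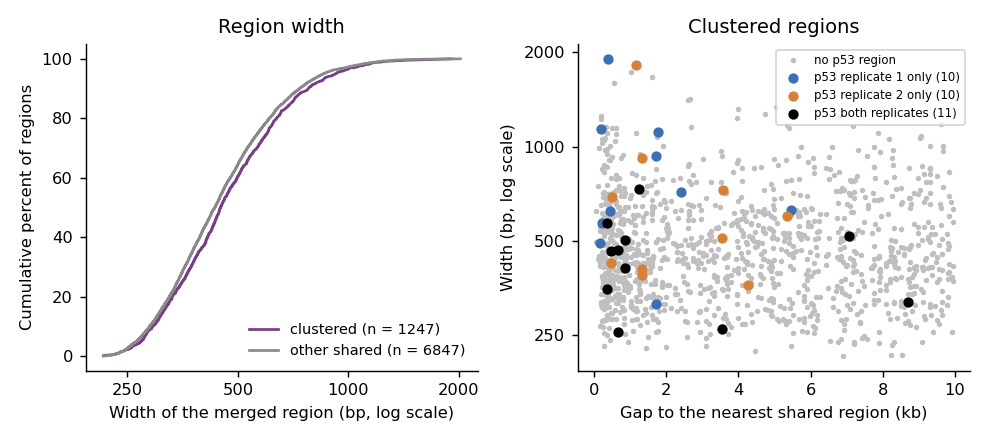
Left, cumulative percent of 1247 clustered and 6847 other shared regions by width of the merged region in bp (log axis), where the clustered curve runs slightly to the right (medians 449 and 433 bp). Right, width against gap to the nearest shared region in kb for each clustered region, with regions that overlap a p53 peak coloured by p53 replicate (10 in replicate 1 only, 10 in replicate 2 only, 11 in both), most of them at gaps under 5 kb.

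The replicate peaks lay close to each other inside clustered regions, where sharing requires them to overlap, as it does in other shared regions. Their midpoints were a median of 36.5 bp apart, against 34 bp in other shared regions, and the replicate 1 peak was the wider in 71.4% and 75.7%. Replicate peaks overlapped by at least 50% of both in 88.7% of clustered and 90.7% of other shared regions.

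Regions with a peak of 1 ERG replicate alone were somewhat more common beside clusters. These counts come from the ERG lists that chose the members. The clustered share was also higher where ERG regions were dense, and the counts were not split by density, so they are a description. A replicate 1 region without partner lay within 10 kb of 136 clustered regions (10.9%) and 7.64% of the others, a difference of 3.27 points (95% Newcombe interval 1.53 to 5.22). For replicate 2 the values were 67 (5.37%) and 2.96%, a difference of 2.41 points (1.21 to 3.85). Few lay between the members. Replicate 1 had such a region inside 17 of the 578 spans and replicate 2 inside 8. Chaining all 14025 merged regions regardless of replicate gave a longest chain of 9, at chr2:92290533-92320513, with 1 shared region among them.

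Peaks with a close neighbour were found in the other ERG list about as often as lone peaks. Here neighbours were sought in one list alone and the other list gave the readout. The rule uses both lists, for sharing and for neighbours, so this is a description of the values that chose the members. Of 2709 replicate 1 peaks with another within 10 kb, 66.1% were found in replicate 2, and of 9751 lone peaks 64.8%, a difference of 1.39 points (-0.65 to 3.39). Of 1884 such replicate 2 peaks 84.2% were found in replicate 1, and of 7869 lone ones 83.7%, a difference of 0.51 points (lower bound -1.38, upper bound 2.297). Within 5 classes of peak width in each list, all 10 intervals of the difference included 0.

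Peaks under 1 kb from another stood apart when the match had to be close. With a reciprocal overlap of 50%, 340 of 633 replicate 2 peaks in this class were found (53.7%, 49.8% to 57.6%), against 74.6% from 1 to 5 kb, 77.6% from 5 to 10 kb and 76.6% over 10 kb. At 1 bp of overlap the shares were 83.7%, 84.0%, 85.0% and 83.7%. Of the 530 found at 1 bp, 160 (30.2%) lay under a replicate 1 peak that spanned several replicate 2 peaks. For replicate 1 the closest class gave 54.5% at 50% overlap, against 59.0% over 10 kb, and 26 of 524 lay under 1 spanning peak. Such joined peaks count as 1 region and form no cluster by themselves. Several peaks of a replicate were held by 14 clustered (1.12%) and 79 other shared regions (1.15%).

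**Figure D4:**
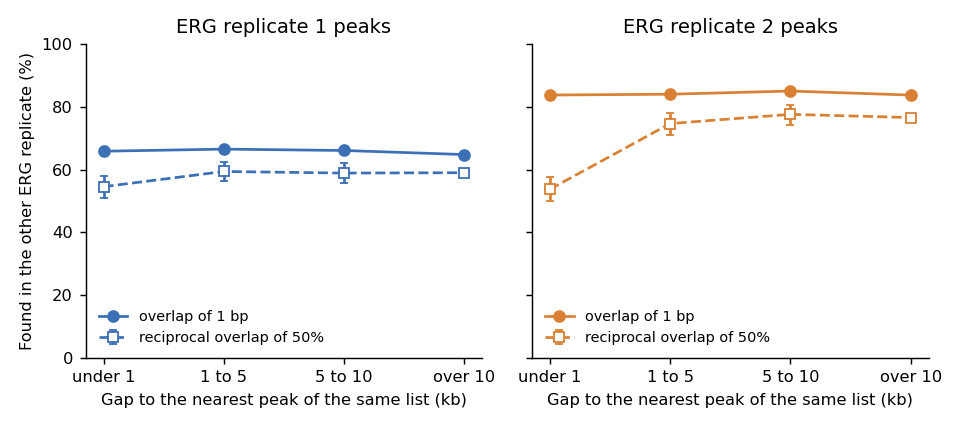
Percent of ERG peaks of replicate 1 (left) and replicate 2 (right) found in the other replicate, by gap to the nearest peak of the same list in kb. Filled circles are any overlap and open squares a reciprocal overlap of 50% with 95% Wilson intervals, and replicate 2 peaks under 1 kb from another drop to 53.7%.

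The p53 lists, which the rule did not use, were then laid over the regions. On the 20 autosomes they held 188 and 121 peaks, which merged into 281 regions. Over all 8094 shared ERG regions, 110 overlapped a p53 peak of either replicate, which is 1.36%. Of the 1247 clustered regions 31 did (2.49%, 1.76% to 3.51%) and of the 6847 others 79 did (1.15%, 0.927% to 1.44%), a difference of 1.33 points (0.55 to 2.38) and a ratio of 2.15. The intervals treat regions as independent, which neighbours are not, and cover counting error only, so no p-value is given.

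The difference was positive in each p53 replicate and was smallest for regions that overlapped replicate 1 alone. In replicate 1, 21 clustered regions (1.68%) and 59 others (0.862%) overlapped a peak, a difference of 0.82 points (0.19 to 1.72). In replicate 2 they were 21 (1.68%) and 32 (0.467%), a difference of 1.22 points (0.61 to 2.10). In both replicates they were 11 (0.882%) and 12 (0.175%), a difference of 0.71 points (0.30 to 1.40). For replicate 1 without replicate 2 they were 10 (0.802%) and 47 (0.686%), a difference of 0.12 points (-0.31 to 0.80), and for replicate 2 without replicate 1 they were 10 (0.802%) and 20 (0.292%), a difference of 0.51 points (0.11 to 1.19). With all peaks of a single ERG list in place of the shared regions the difference was 0.53 points for ERG replicate 1 and 2.10 points for ERG replicate 2.

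Regions with the closest neighbours overlapped p53 most often. With a neighbour under 1 kb away 14 of 327 did (4.28%, 2.57% to 7.06%), from 1 to 5 kb 13 of 462 (2.81%, 1.65% to 4.75%), and from 5 to 10 kb 4 of 458 (0.873%, 0.340% to 2.22%). The last share lay below that of the other shared regions and its interval included it. Pairs gave 23 of 1004 (2.29%) and clusters of 3 gave 8 of 195 (4.10%). Those 8 included 3 in the cluster at chr8:43092779 and 3 in that at chr10:42394193, both near the long stretches without peaks described below. Shares by cluster size without such places were not computed. In clustered and in other shared regions the widest of the 5 width classes overlapped p53 more often than the narrowest. For clustered regions the shares at these ends were 1.75% and 4.196%, and for the others 0.219% and 2.99%. The clustered share was the higher in all 5 width classes, by 0.72 to 1.83 points, and the interval of the difference left out 0 in the first and the fourth class. Split by shared regions within 500 kb outside the own cluster, it was not always the higher. With 0 to 1 such regions the shares were 0% (0 of 76) clustered and 1.20% other, and with 5 to 9 they were 0.610% and 0.929%. With 2 to 4 they were 4.83% and 1.06%, and with 10 or more 3.45% and 1.78%.

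The overlap was concentrated in a few places. It was higher in clustered regions on 12 chromosomes and lower on 8, and on 7 chromosomes no clustered region overlapped p53. The 31 regions lay in 22 clusters, and in 7 of these every member overlapped p53, 16 regions in all. Of those 7 clusters 6 stood near long stretches without any peak, at chr1:121484106, chr4:49151196, chr8:43092779, chr10:42394193, chr10:42533451 and chr18:18518936. The seventh, at chr13:110436850 and chr13:110438874, held p53 of replicate 1 alone, in regions of 316 and 931 bp.

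Stretches of at least 3 Mb with no peak in any of the 4 lists numbered 66 on these chromosomes, a length chosen after the values were seen, and were not annotated here. Within 2 Mb of them lay 100 clustered regions, of which 15 overlapped p53 (15.0%, 9.31% to 23.3%), and 599 others, of which 11 did (1.84%, 1.03% to 3.26%). The 15 lay at few of the stretches. They were 5 of 5 clustered regions at chr10:38692115-42356257 and 2 of 2 each at chr1:121485395-143283631 and chr18:14971961-18517163. Further ones were 3 of 7 at chr8:43097046-48100178, 2 of 6 at chr4:49647032-53525783 and 1 of 5 at chr8:33342972-36691541, with none at the remaining stretches. Without the regions within 2 Mb of any stretch, 16 of 1147 clustered regions (1.39%) and 68 of 6248 others (1.09%) overlapped p53, a difference of 0.31 points (-0.30 to 1.20). By replicate it fell to 0.23 points (-0.28 to 1.03) in p53 replicate 1 and 0.14 points (-0.20 to 0.77) in p53 replicate 2, and all 3 intervals included 0. By spacing, the shares were then 6 of 289 (2.08%, 0.955% to 4.45%) under 1 kb and 6 of 422 (1.42%, 0.653% to 3.07%) from 1 to 5 kb. From 5 to 10 kb the share was 4 of 436 (0.917%, 0.357% to 2.33%). These intervals overlap, and the interval of each difference from the other regions included 0. In both p53 replicates only 2 clustered regions (0.174%) and 7 others (0.112%) were left.

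**Figure D5:**
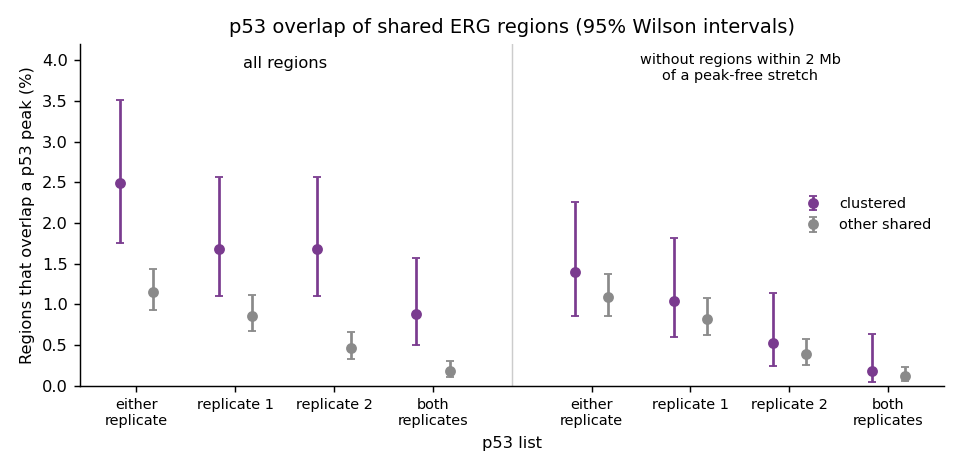
Percent of clustered (purple) and other shared ERG regions (grey) that overlap a p53 peak, for each p53 list and for both, with 95% Wilson intervals. The left panel holds all 8094 regions and shows 2.49% against 1.15% for either replicate, and the right panel leaves out regions within 2 Mb of a stretch of 3 Mb or more without peaks, where the shares are 1.39% and 1.09%.

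Most ERG regions with p53 near those stretches had a p53 peak centred close to their own midpoint. At chr1:121484106-121484675 the ERG peaks measured 541 and 570 bp and the p53 peaks 331 and 582 bp, and the midpoint of the replicate 2 p53 peak lay 1 bp from that of the region. At chr8:43092779 3 regions of 734, 467 and 256 bp in a row, 1252 and 674 bp apart, overlapped p53 of both replicates, with p53 peaks of 616, 453 and 218 bp in replicate 1 and 714, 472 and 239 bp in replicate 2. At chr10:42394193 3 regions of 729, 407 and 389 bp met p53 peaks of 742, 415 and 399 bp in replicate 2 and none in replicate 1. At chr4:49155251 the region of 262 bp met p53 peaks of 254 and 264 bp. The replicate 2 p53 peak came close to the width of the region, and the replicate 1 peak was shorter, in the second region of the chromosome 1 pair (351 bp, p53 peaks of 266 bp in replicate 1 and 378 bp in replicate 2), at chr10:42533451-42533861 (411 bp, 311 and 400 bp) and at chr18:18519837-18520302 (466 bp, 396 and 441 bp). At chr10:42534726-42535230, a region of 505 bp, the p53 peaks measured 244 and 263 bp. Over the 15 regions the nearest p53 midpoint lay a median of 4.5 bp from the midpoint of the ERG region, against 99 bp over the 16 regions farther off. The exceptions were chr8:37761479, chr10:42534726 and chr18:18518936, at 103, 110.5 and 260 bp. No list of the input sample was used, so whether input chromatin is enriched at these places was not tested.

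The 16 regions farther off were wide and mostly single within their cluster. Their median ERG width was 659 bp, against 426 bp near the stretches and 447 bp for clustered regions without p53. Of the 16, 13 were the widest member of their cluster. Each of the 578 clusters has a widest member, so that place is common among the 1247 clustered regions. Large width was not particular to the 16, since the 79 other shared regions with p53 had a median of 623 bp. Among the 16, replicate 1 alone accounted for 10, replicate 2 alone for 4 and both for 2. The last 2 are the BGLAP and PMF1 region, chr1:156186242-156186560, and chr11:65686551-65687068. The latter was 518 bp wide with p53 peaks of 230 and 256 bp, whose midpoints lay 46 and 6 bp from its own, and its neighbour stood 7065 bp away. Among the regions of 1 replicate was chr1:154973170-154973888, whose neighbour 2416 bp away carried the candidate labelled ZBTB7B, a zinc-finger repressor. The p53 peak at chr6:20401692-20402826 lay 304.5 bp from the middle of an ERG region of 1135 bp.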

How the data were processed

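ERG and p53 ChIP-seq peak lists of VCaP cells were analysed as deposited. Per the submitters' processing notes CASAVA 1.4, Bowtie2 2.3.3.1 and MACS2 were used with hg19. The study's methods name another Bowtie2 version and both builds. The authors called peaks per sample. The deposited values are start and end positions in bp, with no score, so no ratio, p-value or count of reads was used. On 15 of 24 chromosomes peaks ran past the GRCh38 end (304 of 25939 peaks), so positions were read as hg19 and never converted. The study states p-value thresholds for peak calling. The deposited p53 lists match none of its p53 peak numbers, and it is unclear how they were selected.

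Peaks overlapping by at least 1 bp were merged, and regions up to 10 kb apart were chained. Positions count from 1. Intervals are Wilson or, for differences, Newcombe, at 95%. No test was made, since the rule chose the members on the ERG lists and regions are not replicates. The members and lists were chosen with earlier results of these data known. Named regions were the 10 clusters with most regions (ties by span), the 5 closest pairs, the 5 regions with the largest narrower peak, regions overlapping p53 of both replicates, the 5 clusters with most p53 overlaps and the 3 gaps on each side of the limit. Candidate motifs were matched to GRCh38 by sequence. The merging and chaining were tested on simulated data. Alternatives comprised other distances, overlaps, widths, chromosomes and single lists. Python 3.11.15, numpy 2.4.6, scipy 1.17.1 and matplotlib 3.10.9 were used.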

Additional observations from a re-analysis of the deposited data

How the results depend on the processing

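The number of clustered regions follows its definition, at 789 with a limit of 5 kb, 1996 with 20 kb and 1884 to 2709 when ERG replicate 1 or 2 was left out and all peaks of the remaining list were used. The median width of clustered regions was 435 bp with a reciprocal overlap of 50%, 413 bp and 338 bp for the replicate 1 and replicate 2 peak alone, and 316 to 361 bp without either ERG replicate, and in all of these it stayed above that of the other shared regions. The difference in p53 overlap was positive under all 13 alternatives tried, which reuse the same lists and are not independent. It was 0.53 to 2.10 points without either ERG replicate and 0.82 to 1.22 points without either p53 replicate. An alternative chosen after seeing the data left out regions within 2 Mb of a stretch of 3 Mb or more with no peak. It gave 0.31 points (-0.30 to 1.20), an interval that includes 0. The remaining alternatives kept those regions. Counting each cluster 1 time gave 2.65 points. That count is raised by its making, because any member of a cluster could overlap p53 while each other region stood alone. The difference in recurrence between peaks with and without a close neighbour turned to -1.21 points in the replicate 1 list and -7.98 points in the replicate 2 list with a reciprocal overlap of 50%. No paired analysis was possible because no result comes from a test, and the replicate numbers only name samples. Peak positions carry no depth, so a region missed in 1 replicate cannot be told from one just under the threshold.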

Other observations

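Clustered regions held 1248 ERG peaks of replicate 1 (10.0% of the peaks on the 20 autosomes) and 1260 of replicate 2 (12.9%), and 11.2% of the p53 peaks of replicate 1 and 17.4% of replicate 2. By rule each member holds a peak of both ERG replicates, and 21 members overlapped p53 in each p53 replicate, while the replicate 2 lists are the shorter ones. Of the 281 p53 regions 31 lay at a clustered region and 80 at another shared region, and 2 lay inside a cluster span between its members.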
